A study of Mus musculus with 18 samples.

Results

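Glucose taken up by a cell is carried through the glycolytic pathway to pyruvate and lactate, and 10 genes of that pathway were followed here across the day in dermal fibroblasts, immune cells and muscle cells of the mouse. They were chosen by name: Slc2a1, Hk2, Gpi1, Pfkp, Pfkfb3, Aldoa, Pgk1, Pgam1, Pkm and Ldha. These names matched 11 of the 32285 genes counted, because Aldoa stands for a pair of entries. The second Aldoa entry (ENSMUSG00000114515) held 7 UMIs in fibroblasts, 1 in immune cells and 3 in muscle cells, was too low to be tested in the comparisons below, and is left out of the counts of genes.

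The mice were male wild-type C57BL/6J animals kept in a cycle of 12 h light and 12 h dark, and per the study's methods they were young adults with skin in telogen, the resting phase of the hair cycle. Dorsal dermis was collected at zeitgeber time (ZT, hours after lights on) 2, 6, 10, 14, 18 and 22, with 3 libraries per time and 18 in all. The study's methods give a mouse for each sample and collection over 3 days. The labels give a replicate number and a collection hour, from which the day was read. The skin was minced and digested with collagenase for 1.5 h at 37 °C, and live cells were sorted before droplet-based single-cell RNA-seq of transcript 3′ ends. All groups share genotype, strain and sex and differ only in the time of collection. No treatment is labelled, and the comparisons are between times of day and between cell types.

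In glycolysis, a transporter brings glucose into the cell, hexokinase traps it as glucose 6-phosphate, phosphofructokinase commits it to the pathway, and the later enzymes yield ATP and pyruvate, which lactate dehydrogenase can turn into lactate. Several of these genes are known targets of the hypoxia-inducible factor HIF-1, which binds DNA at the core letters ACGTG or GCGTG. The circadian factors CLOCK and BMAL1 bind the E-box CACGTG, which contains the first of these cores. Fast skeletal muscle relies on glycolysis for contraction and carries its own isoforms of several of the enzymes.

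The sequence before the start sites is shown for Pfkfb3, whose fitted peak in fibroblasts lay in the light phase, and for Ldha and Pgk1, which had the largest daily differences of the 4 genes that peaked in the first hours of the dark phase. The second Ldha start site, whose window (chr7:46846832-46847081) holds GCGTG once and no E-box, is not printed. Each line gives the 250 bases before a RefSeq start site in the GRCm38.p6 assembly, on the strand of the gene, and capitals mark ACGTG or GCGTG on either strand, an E-box CACGTG included as 1 run.
Ldha start site 1, chr7:46845554-46845803, plus strand: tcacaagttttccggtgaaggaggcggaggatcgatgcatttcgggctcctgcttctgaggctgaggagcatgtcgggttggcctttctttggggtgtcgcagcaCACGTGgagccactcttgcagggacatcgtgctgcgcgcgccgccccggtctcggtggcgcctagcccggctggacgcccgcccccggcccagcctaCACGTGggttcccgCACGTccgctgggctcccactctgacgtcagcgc
Pfkfb3 start site 1, chr2:11553930-11554179, minus strand: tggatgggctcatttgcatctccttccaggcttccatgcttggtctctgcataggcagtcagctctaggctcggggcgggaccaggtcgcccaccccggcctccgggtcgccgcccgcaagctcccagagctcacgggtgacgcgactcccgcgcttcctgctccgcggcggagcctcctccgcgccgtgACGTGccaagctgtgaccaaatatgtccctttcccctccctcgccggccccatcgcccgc
Pfkfb3 start site 2, chr2:11502091-11502340, minus strand: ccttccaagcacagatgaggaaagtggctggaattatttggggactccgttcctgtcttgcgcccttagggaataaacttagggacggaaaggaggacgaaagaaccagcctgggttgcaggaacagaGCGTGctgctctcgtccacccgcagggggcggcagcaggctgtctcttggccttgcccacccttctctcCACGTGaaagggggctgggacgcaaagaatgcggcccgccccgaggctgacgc
Pgk1, chrX:106186850-106187099, plus strand: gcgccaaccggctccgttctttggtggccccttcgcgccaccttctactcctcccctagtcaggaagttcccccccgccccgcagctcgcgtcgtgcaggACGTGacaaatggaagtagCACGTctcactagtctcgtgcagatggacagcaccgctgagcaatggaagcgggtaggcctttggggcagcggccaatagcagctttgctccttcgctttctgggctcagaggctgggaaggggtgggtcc

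All 10 genes were matched to RefSeq promoters, with 15 start sites between them. ACGTG or GCGTG was present on either strand in 12 of the 15 windows, against 38.6% of the 32851 promoter windows of all genes, and Gpi1 was the 1 gene without it. The windows of Aldoa start sites 2 and 3 overlap and hold the same single match, which is counted in both. The E-box CACGTG was present in 2 of the 15 windows, against 6.02% of all promoters. These were Ldha start site 1, with its boxes beginning 48 and 145 bases before the start, and Pfkfb3 start site 2, with 1 box beginning 53 bases before it. The windows of these genes had a median GC content of 64.0% (range 50.4% to 69.6%), against 52.4% over all promoters, and the part of base content in these counts was not tested. A match is a string of letters in this window and was not tested as a binding site.

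After the filter on cells, 16877 of 23990 barcodes were kept. Fibroblasts were 11937 of them (70.7%), immune cells 3375 (20%) and muscle cells 732 (4.34%). A library held 103 to 1545 fibroblasts and 31 to 448 immune cells, and 12 libraries held the 20 muscle cells required for use. The classes were named from these markers, so their marker sums are a description and no independent check of the names. The summed fibroblast markers were 635 to 1115 per 10000 UMIs in fibroblasts and 2.68 to 56.4 in immune cells. The summed immune markers were 155 to 291 in immune cells and at most 0.232 in fibroblasts. Total depth was 4850221 to 40827442 UMIs per library. All 9 clock genes listed as a check of the time labels passed the rhythm test in fibroblasts, against 5 in immune cells.

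A few libraries stand apart. ZT6 replicate 2 and ZT10 replicate 3 shared 89 cell barcodes, against at most 4 in any other of the 153 pairs of libraries, and results that change without them are given both ways. ZT14 replicate 1 had the highest level of 18 libraries for 5 of the 10 genes in fibroblasts and for 7 of 10 in immune cells. It also held 92 of the 148 neutrophil-like cells of the whole series, 33.7% of its immune cells against a median of 1.53% over the libraries. Its immediate early genes, which rise when tissue is dissociated, summed to 67.3 per 10000 UMIs in fibroblasts, the 17th of 18 (range 62.6 to 126). Values at ZT14 are therefore given for each library, and the fitted differences that move most without replicate 1 are given both ways. No call on a rhythm of the 10 genes with edgeR changed without that library.

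In fibroblasts, 7 of the 10 genes showed a 24 h rhythm with edgeR's quasi-likelihood test at a Benjamini-Hochberg adjusted p under 0.05, where 14.1% of all 12345 genes tested did so. At an unadjusted p under 0.05 the same 7 were called, against 30% of all genes. With JTK_Cycle 6 were, against 7.48% of a larger set of 22167 genes, so its share and those of edgeR are not over like sets. Pfkfb3 peaked in the middle of the light phase. Gpi1, Ldha, Pgk1 and Pkm peaked in the first hours of the dark phase, between ZT13.4 and ZT16.8, followed by Slc2a1 at ZT18.6 and Pfkp at ZT22.5. Of the rhythmic genes of fibroblasts as a whole, 30.2% had a fitted peak between ZT12 and ZT18, against 4 of these 7. Without ZT14 replicate 1 the same 7 genes passed, and without ZT6 replicate 2 and ZT10 replicate 3, which share barcodes, 5 did, Pgk1 and Pkm being lost (adjusted p = 0.0590 and 0.0681, edgeR). With only the cells of shared barcodes left out, no rhythm call on the 10 genes in fibroblasts changed. Levels are UMIs of the gene per 10000 UMIs of the summed cells. In them a change in the makeup of a class and a change within its cells cannot be told apart. The peak-to-trough difference is that of the fitted cosine on the log2 scale, with a jackknife SE over the 18 libraries. In the paragraphs on single genes, the times printed were picked for their highest and lowest means, with a further time for Pfkfb3. Libraries of times picked in this way tend to separate, so a lack of overlap is a description and no test. How often it occurs over all genes was not counted.

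**Figure D1:**
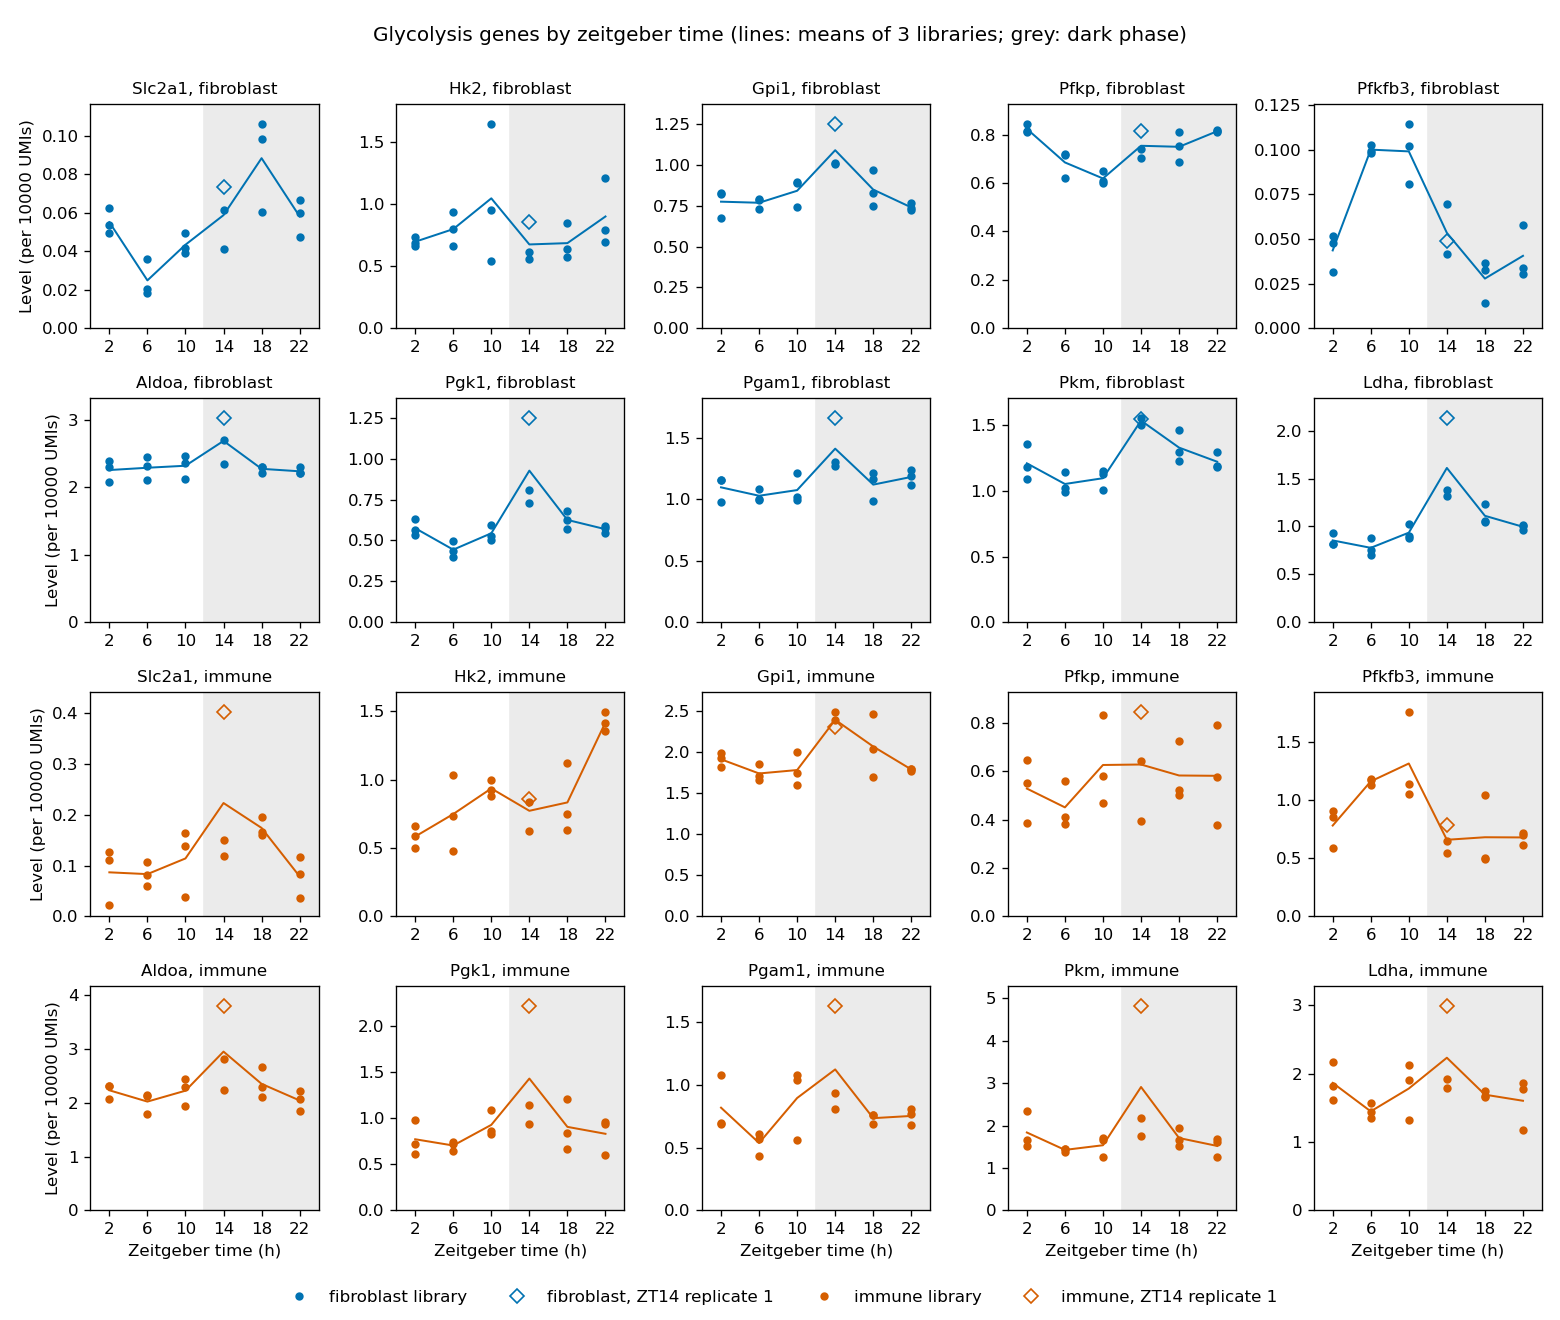
Level per 10000 UMIs of each of the 10 genes against zeitgeber time, in fibroblasts (blue, upper 10 panels) and immune cells (orange, lower 10 panels). Each point is 1 library, the line joins the means of 3 libraries, grey marks the dark phase and the open diamond is ZT14 replicate 1, each panel having its own axis from 0. In fibroblasts the ZT14 libraries of Ldha and Pkm lie above all libraries of ZT6, and those of Pfkfb3 at ZT6 and ZT10 above all others.

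Slc2a1 (chr4:119108711-119137983, plus strand, GRCm38) encodes the glucose transporter GLUT1. Its level in fibroblasts was 0.0182, 0.0202 and 0.0361 per 10000 UMIs in replicates 1, 2 and 3 at ZT6 and 0.0985, 0.106 and 0.0606 at ZT18. Every ZT18 library was above every ZT6 library, and ZT18 also held the highest single library. The fitted peak was at ZT18.6 ± 0.70 h with a peak-to-trough difference of 1.19 ± 0.32 (adjusted p = 0.0116, edgeR). These are low counts, 1411 UMIs over the 18 libraries. In immune cells Slc2a1 was 0.402, 0.15 and 0.118 per 10000 UMIs at ZT14 and 0.0360, 0.117 and 0.0835 at ZT22. The ZT14 libraries were above those of ZT22, narrowly so at 0.118 against 0.117, and ZT14 replicate 1 lay far above the others. All ZT18 libraries, at 0.160 to 0.197, were above replicates 2 and 3 of ZT14. The immune fit gave 1.56 ± 0.68 with a peak at ZT14.7 ± 1.0 h and did not pass (adjusted p = 0.521, edgeR), and without ZT14 replicate 1 it was 1.06.

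Hk2 (chr6:82725025-82774454, minus strand) encodes the inducible hexokinase. It did not pass in fibroblasts, where its level was 1.64, 0.948 and 0.544 per 10000 UMIs at ZT10 and 0.853, 0.554 and 0.616 at ZT14 (adjusted p = 0.717, edgeR). The replicates of ZT10 spanned the whole range of the 18 libraries. In immune cells Hk2 was 1.49, 1.35 and 1.41 at ZT22 and 0.50, 0.662 and 0.588 at ZT2. All 3 libraries of ZT22 were above the other 15, and the 3 of ZT2 lay in the lower part of the range. A cosine did not pass (0.48 ± 0.32, adjusted p = 0.794, edgeR), and nor did a fit with 1 level per time, in any of the 10 genes.

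Gpi1 (chr7:34201330-34230336, minus strand) encodes glucose-6-phosphate isomerase. In fibroblasts it was 1.25, 1.01 and 1.01 per 10000 UMIs at ZT14 and 0.721, 0.733 and 0.765 at ZT22, with all ZT14 libraries above all 15 others. The fit peaked at ZT13.4 ± 0.74 h with a difference of 0.42 ± 0.12 (adjusted p = 0.0136, edgeR). In immune cells it was 2.3, 2.4 and 2.49 at ZT14 and 1.86, 1.66 and 1.71 at ZT6. Those groups did not overlap either, and here replicate 1 was the lowest of the 3 at ZT14. The immune difference of 0.35 ± 0.10 peaked at ZT15.4 and did not pass (adjusted p = 0.562, edgeR).

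Pfkp (chr13:6579768-6648777, minus strand) encodes the platelet isoform of phosphofructokinase. Its fibroblast level was 0.818, 0.811 and 0.845 per 10000 UMIs at ZT2 and 0.648, 0.611 and 0.599 at ZT10. It was highest at the turn from dark to light and lowest at ZT10, with no overlap. The difference of 0.32 ± 0.06 was the smallest of the 7 that passed (peak ZT22.5 ± 0.81 h, adjusted p = 0.0137, edgeR). In immune cells Pfkp ranged from 0.378 to 0.845 with overlapping times (0.39, adjusted p = 0.806, edgeR), and the fitted difference was 0.24 without ZT14 replicate 1.

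Pfkfb3 (chr2:11471433-11554077, minus strand) encodes the enzyme that makes fructose 2,6-bisphosphate, the activator of phosphofructokinase. Its fibroblast level was 0.103, 0.0983 and 0.0995 per 10000 UMIs at ZT6 and 0.102, 0.115 and 0.0808 at ZT10, against 0.0141, 0.0327 and 0.0366 at ZT18. All 6 libraries of the middle and late light phase were above all 12 others. The fitted difference of 1.82 ± 0.24 (3.53-fold) was the largest of the 10 genes, with a peak at ZT8.18 ± 0.63 h (adjusted p = 0.000171, edgeR). Its fibroblast counts are low, 1561 UMIs over the 18 libraries. In immune cells the level was 1.14, 1.18 and 1.17 at ZT6, 1.14, 1.06 and 1.76 at ZT10 and 0.790, 0.647 and 0.543 at ZT14. The same 6 libraries were again the highest of 18, and the fitted peak, ZT7.84 ± 1.1 h, lay within the error of the peak in fibroblasts. The immune difference of 1.02 ± 0.31 did not pass with edgeR (adjusted p = 0.372) and passed with DESeq2 (1.03, adjusted p = 0.0416).

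Aldoa (chr7:126795234-126800751, minus strand) encodes aldolase A. In fibroblasts it was 3.02, 2.70 and 2.34 per 10000 UMIs at ZT14 and 2.21, 2.21 and 2.29 at ZT22, and it did not pass (0.18 ± 0.08, adjusted p = 0.192, edgeR; 0.13 without ZT14 replicate 1). In immune cells it was 3.78, 2.81 and 2.24 at ZT14 and 1.8, 2.12 and 2.14 at ZT6 (0.41 ± 0.19, adjusted p = 0.577, edgeR), and the fitted difference was 0.24 without ZT14 replicate 1. Muscle fibres are very rich in this transcript, so the muscle RNA carried by other cells was measured through Acta1, the skeletal muscle actin. At the ratio of Aldoa to Acta1 in muscle cells, the Acta1 in each library corresponded to a median of 1.52% of the fibroblast Aldoa (highest 6.15%) and 3.85% of the immune Aldoa (highest 17.3%). With that amount subtracted, the ZT14 mean was 2.60 ± 0.32 per 10000 UMIs in fibroblasts and 2.73 ± 0.80 in immune cells (SD, n = 3). It was the highest mean in both. In immune cells the subtracted ZT14 values were 3.65, 2.33 and 2.20 in replicates 1, 2 and 3. ZT18 replicate 1, at 2.54, lay above replicates 2 and 3. The part of muscle RNA in the ZT14 levels was not tested.

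Pgk1 (chrX:106187100-106203699, plus strand) encodes phosphoglycerate kinase 1. In fibroblasts it was 1.25, 0.727 and 0.806 per 10000 UMIs at ZT14 and 0.438, 0.398 and 0.494 at ZT6, with every ZT14 library above the other 15. The difference was 0.65 ± 0.24 with a peak at ZT15.7 ± 1.0 h (adjusted p = 0.0289, edgeR) and 0.45 (adjusted p = 0.0236) without ZT14 replicate 1. The call was lost without ZT6 replicate 1 (adjusted p = 0.0583), ZT6 replicate 2 (0.0548) or ZT14 replicate 3 (0.0605). In immune cells it was 2.21, 0.938 and 1.14 at ZT14 and 0.740, 0.646 and 0.725 at ZT6 (0.82 ± 0.41, adjusted p = 0.521, edgeR), and 0.46 without ZT14 replicate 1.

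Pgam1 (chr19:41911923-41918660, plus strand) encodes the phosphoglycerate mutase of non-muscle tissue. Its fibroblast level was 1.66, 1.30 and 1.27 per 10000 UMIs at ZT14 and 0.996, 1.01 and 1.08 at ZT6. The ZT14 libraries were the 3 highest of 18, yet the cosine fit of 0.25 ± 0.12 did not pass (adjusted p = 0.209, edgeR), and it was 0.16 without ZT14 replicate 1. In immune cells the values were 1.62, 0.805 and 0.936 at ZT14 and 0.568, 0.430 and 0.611 at ZT6 (0.56, adjusted p = 0.666, edgeR), and the fitted difference was 0.29 without ZT14 replicate 1.

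Pkm (chr9:59656368-59679375, plus strand) encodes the pyruvate kinase of muscle and most other tissues. The counts are per gene and do not separate its M1 and M2 splice forms. In fibroblasts it was 1.55, 1.50 and 1.55 per 10000 UMIs at ZT14 and 0.992, 1.02 and 1.15 at ZT6. The ZT14 libraries were close together and above the other 15. The difference of 0.36 ± 0.09 peaked at ZT16.8 ± 0.96 h (adjusted p = 0.0254, edgeR). That call was lost without ZT6 replicate 1 (adjusted p = 0.0555), ZT6 replicate 2 (0.0519) or ZT18 replicate 3 (0.0521). In immune cells Pkm was 4.81, 1.75 and 2.17 at ZT14 and 1.44, 1.46 and 1.38 at ZT6, and its fitted difference was 0.61 ± 0.48 with ZT14 replicate 1 and 0.17 without it (adjusted p = 0.672 and 0.93, edgeR).

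Ldha (chr7:46841475-46855627, plus strand) encodes lactate dehydrogenase A. In fibroblasts it was 2.13, 1.38 and 1.32 per 10000 UMIs at ZT14 and 0.703, 0.751 and 0.877 at ZT6, with the ZT14 libraries the 3 highest of 18. The difference was 0.81 ± 0.21 (1.75-fold) with a peak at ZT15.5 ± 0.68 h (adjusted p = 0.00266, edgeR), and 0.62 (adjusted p = 0.000342) without ZT14 replicate 1. In immune cells Ldha was 2.99, 1.8 and 1.92 at ZT14 and 1.44, 1.57 and 1.35 at ZT6. The immune difference was 0.33 ± 0.25 (adjusted p = 0.771, edgeR), and 0.12 without ZT14 replicate 1.

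**Figure D2:**
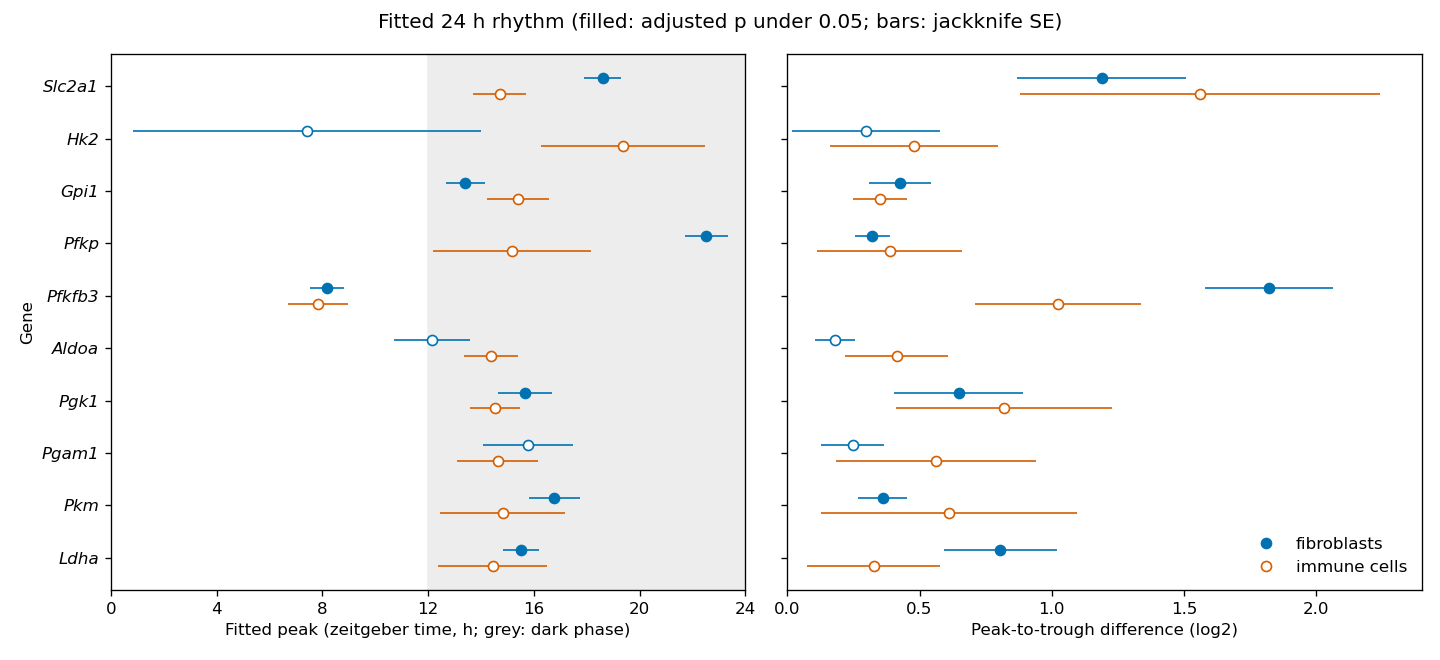
Fitted peak time in zeitgeber hours (left) and peak-to-trough difference on the log2 scale (right) of the 10 genes in fibroblasts (blue) and immune cells (orange), with jackknife SE bars over 18 libraries. Filled points passed an adjusted p of 0.05, which 7 genes did in fibroblasts and 0 in immune cells, and Pfkfb3 is the 1 gene with both peaks in the middle of the light phase.

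In immune cells 0 of the 10 genes passed with edgeR, where 0.0882% of 10199 genes did (9 genes). At an unadjusted p under 0.05 there were 5 of 10, against 8.05% of all genes: Pfkfb3, Slc2a1, Pgk1, Gpi1 and Aldoa. The immune sums are shallower, with 3375 cells at a median of 10984 UMIs against 11937 fibroblasts at 22262, and their peak-to-trough estimates carry larger errors for 9 of the 10 genes. With DESeq2 1 gene passed, Pfkfb3, and with JTK_Cycle 2 did at its exact p under 0.05, Pfkfb3 (p = 0.0142) and Slc2a1 (p = 0.0396), where 2.11% of a larger set of 19767 genes passed. Whether the rhythm differs between the classes was itself tested, in a fit with the library as a block. A difference passed for 0 of the 10 genes, where 0.332% of 11460 genes passed, and for 3 of 10 at an unadjusted p under 0.05, against 9.34% of all genes. These were Ldha, Slc2a1 and Pfkfb3 (adjusted p = 0.426, 0.434 and 0.440, edgeR). The call in fibroblasts and its absence in immune cells is thus not shown to be a difference between them.

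Other genes of glucose metabolism were counted from a list of 57. In fibroblasts 9 of the 45 tested were rhythmic, against the 14.1% of all genes. Slc16a1, a lactate and pyruvate transporter, peaked at ZT10.2 with a difference of 0.85 (adjusted p = 0.000921), and Pcx, pyruvate carboxylase, at ZT21.4 with 1.24 (0.00142). Pdk4 and Pdhb, a kinase and a subunit of the pyruvate dehydrogenase complex, peaked close together at ZT3.73 and ZT3.87. The mitochondrial PEP carboxykinase gene Pck2 peaked at ZT5.21. Rpe and Taldo1 of the pentose phosphate pathway peaked at ZT16.8 and ZT20.6, and Gbe1, the glycogen branching enzyme, at ZT9.92. The peaks of these genes were thus spread over the day, and of the 23 uptake, upper and lower glycolysis genes on the list, 0 of the 15 tested passed with edgeR (6 at an unadjusted p under 0.05, against 30% of all genes). In immune cells 0 of 38 passed with edgeR, and 8 had an unadjusted p under 0.05, against 8.05% of all genes.

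HIF-1 response genes outside glycolysis passed in 4 of 15 cases in fibroblasts with edgeR, against 14.1% of all genes. In immune cells 0 of 14 passed (5 at an unadjusted p under 0.05, against 8.05% of all genes). Mif, a cytokine, peaked at ZT12.8 with a difference of 0.85, Vegfa, the vascular growth factor, at ZT21.2 with 0.69, Higd1a at ZT16.8 with 0.37 and Bnip3 at ZT5.74 with 0.55. Their peaks did not fall at 1 time. Of the 8 immediate early genes, 0 passed with edgeR in fibroblasts (6 at an unadjusted p under 0.05, against 30% of all genes). The fitted peaks of those 6 lay between ZT2.72 and ZT4.81. The part of dissociation in the daily levels of the glycolysis genes was not tested.

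The levels of these genes also differed between cell types. Levels were compared within libraries with edgeR in 18 fibroblast, 18 immune and 12 muscle sums, with the library as a block. Immune cells were higher than fibroblasts for 6 of the 10 genes and lower for 2, where 39.0% of all 11731 genes tested were higher and 41.8% lower, so the share that differed is near that of all genes. Pfkfb3 stood out by size: its mean level was 0.881 ± 0.327 per 10000 UMIs in immune cells and 0.0608 ± 0.0312 in fibroblasts (SD, n = 18). The ranges of 0.498 to 1.76 and 0.0141 to 0.115 did not overlap, and the difference was 3.84 ± 0.12 on the log2 scale (14.4-fold, adjusted p = 4.75e-27, edgeR).

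The other genes that were higher in immune cells were Gpi1 by 1.16 ± 0.05, Slc2a1 by 1.09 ± 0.22, Ldha by 0.73 ± 0.07, Pgk1 by 0.53 ± 0.07 and Pkm by 0.45 ± 0.10 (log2, jackknife SE, adjusted p at most 0.000202). Gpi1, Ldha and Pgk1 were higher in 18 of 18 libraries, Pkm in 17 and Slc2a1 in 15. In macrophage-like cells, the largest part of the immune class, pooled Slc2a1 was 0.0127 per 10000 UMIs, below the fibroblast mean of 0.0548. It was above that mean in the other immune sub-clusters, from 0.0925 (B-like) to 1.92 (neutrophil-like). The B-like value is 3 UMIs, too few to set it apart from that mean. Pgam1 was lower in immune cells by 0.59 on the log2 scale, in 17 of 18 libraries, and Pfkp by 0.47, in 15 of 18. Pooled Pfkp was 0.280 in macrophage-like and 0.185 in B-like cells (6 UMIs), against a fibroblast mean of 0.742. It was above that mean in the other immune sub-clusters, from 0.909 (led by Gzma) to 2.17 (mast-like). Pooled Pgam1 was above the fibroblast mean of 1.15 in monocyte-like (1.39) and neutrophil-like cells (1.21) and below it in the other sub-clusters. Hk2 and Aldoa did not pass (0.07 ± 0.14 and -0.09 ± 0.05, adjusted p = 0.617 and 0.278, edgeR).

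**Figure D3:**
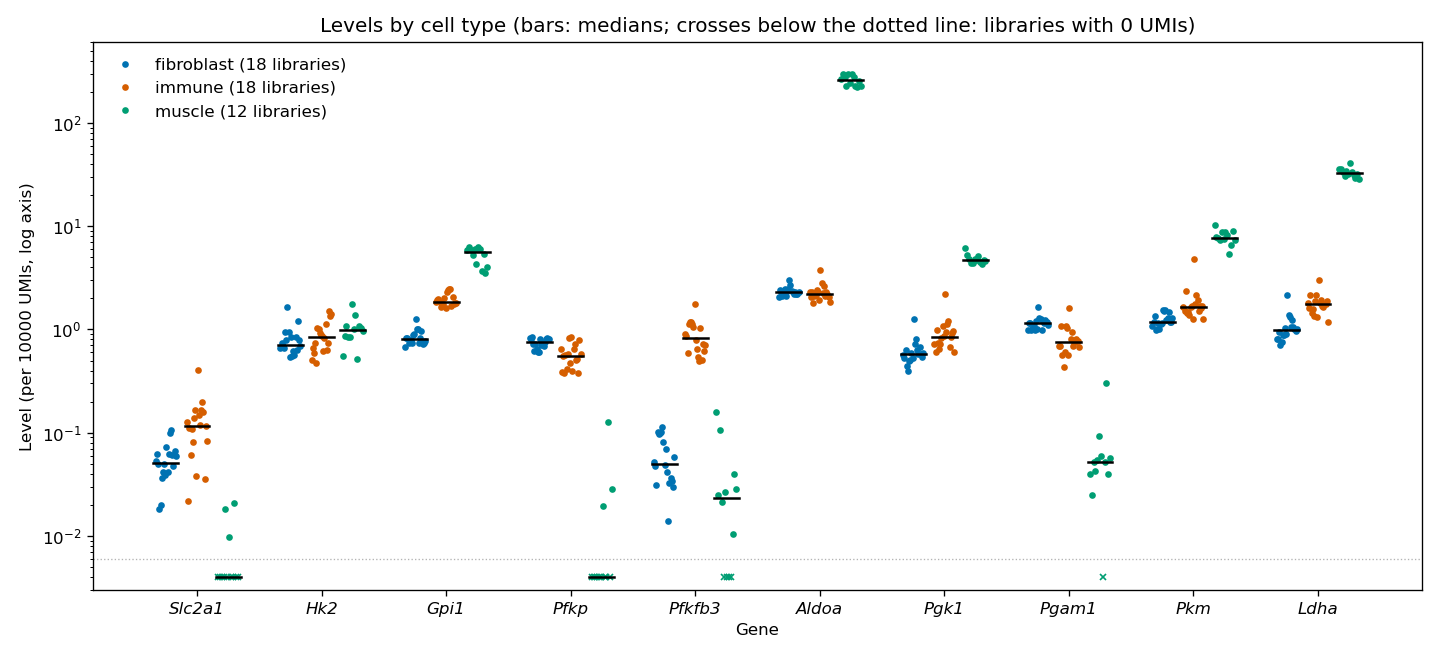
Level per 10000 UMIs of the 10 genes on a log axis in the fibroblast, immune and muscle sums of each library, 1 point per library (18, 18 and 12), with bars at the medians and crosses for libraries with 0 UMIs. Pfkfb3 is separated between immune cells and fibroblasts, and Aldoa and Ldha between muscle and both other classes.

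Muscle cells had the widest range of levels. Aldoa was 259 ± 29.8 per 10000 UMIs in muscle, against 2.34 ± 0.225 in fibroblasts and 2.30 ± 0.449 in immune cells (SD, n = 12, 18 and 18), and Ldha was 33.0 ± 3.23 against 1.05 ± 0.327 and 1.77 ± 0.403. Pkm was 7.86 ± 1.26, Gpi1 5.20 ± 1.05 and Pgk1 4.81 ± 0.508 in muscle. These 5 genes were higher in muscle than in both other classes in 12 of 12 libraries. Against fibroblasts, 6 of the 10 genes were higher in muscle and 3 lower, where 26.8% of all genes were higher and 53.4% lower. The log2 differences were 7.39 ± 0.11 for Aldoa, 5.64 ± 0.15 for Ldha, 3.63 ± 0.14 for Pgk1, 3.30 ± 0.13 for Pkm and 3.26 ± 0.14 for Gpi1.

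A few very abundant muscle transcripts take a large share of the UMIs of a muscle cell, and the median of all genes lay at -1.05 (log2) in muscle against fibroblasts with TMM scaling and at -1.73 with the UMI total alone, where the share of called genes that were higher went from 33.4% to 22.9%. Against immune cells the median was -0.72 and -1.50, and that share 36.9% and 25.1%. Relative to that median, the muscle to fibroblast difference was 8.45 for Aldoa and 2.15 for Hk2 with TMM and 8.49 and 2.15 with the UMI total. Pgam1, Pfkp and Slc2a1 lay below the median on both scales, at -1.98, -3.14 and -1.43 with TMM.

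Pgam1, Pfkp and Slc2a1 were close to absent from muscle. Pgam1 held 55 UMIs over the 12 libraries of 5892345 muscle UMIs (0.0933 per 10000, exact Poisson 95% interval 0.0703 to 0.122), Pfkp 15 (0.0255, 0.0142 to 0.0420) and Slc2a1 4 (0.00679, 0.00185 to 0.0174). Pfkp and Slc2a1 had 0 UMIs in 9 of the 12 libraries each, and 3 counts in a library would be 0.0295 to 0.155 per 10000. The intervals cover counting error only. The highest muscle values of all 3 were in ZT18 replicate 3, whose muscle cells also had the highest sum of fibroblast markers, 77.0 per 10000 UMIs against a median of 1.34, and without that library the log2 differences from fibroblasts were -6.27 for Pfkp, -3.87 for Pgam1 and -3.29 for Slc2a1 in place of -4.19, -3.04 and -2.48. All 3 were lower in muscle than in fibroblasts (adjusted p at most 0.00204, edgeR). Skeletal muscle is known to use the isoforms Pgam2, Pfkm and Slc2a4 at these steps. Of the listed genes of upper and lower glycolysis, which include Pgam2 and Pfkm but not Slc2a4, 8 of the 10 tested were higher in muscle than in fibroblasts and 2 lower. Over all genes 26.8% were higher and 53.4% lower. The count does not give the levels of Pgam2 and Pfkm themselves, and a use of other isoforms at these steps was not tested. Pfkfb3, with 15 UMIs, did not pass against fibroblasts with TMM (-0.50 ± 0.58, adjusted p = 0.319) and passed with the UMI total (-1.21, adjusted p = 0.0110), while relative to the median of all genes it was 0.55 higher.

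Hk2 was at 0.80 ± 0.27 per 10000 UMIs in fibroblasts, 0.881 ± 0.305 in immune cells and 0.992 ± 0.332 in muscle (SD), and the ranges of the 3 overlapped. It was higher in muscle than in fibroblasts in 8 of 12 libraries and than in immune cells in 7 of 12. The tested difference from fibroblasts was 1.1 ± 0.21 with TMM (adjusted p = 7.31e-07, edgeR) and 0.42 with the UMI total (adjusted p = 0.00977). Against immune cells it was 1.02 with TMM (adjusted p = 3.08e-06) and 0.30 with the UMI total (0.0701), so that call depends on the scaling. All 10 genes differed between muscle and immune cells with TMM, 6 higher and 4 lower, where 29.5% of all genes were higher and 50.4% lower.

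Within fibroblasts, Hk2 was unequal between clusters, which had been formed without the pathway genes. Pooled over libraries, it ranged from 0.147 per 10000 UMIs in a cluster of 2171 cells led by Sult1e1 and Cxcl13 to 3.52 in a cluster of 941 cells led by Cthrc1, Tnmd and Tnfaip6. The next highest cluster, led by Cilp and Mgp, was at 1.29. The Cthrc1 and Tnmd cluster made up 3.75% to 20% of the fibroblasts of a library (median 7.42%). It was the lowest of the 9 fibroblast clusters for Gpi1 (0.568), Pkm (0.687), Aldoa (1.67), Pgk1 (0.485), Pfkp (0.576) and Pgam1 (0.935). Ldha in it was 0.959, near the lowest cluster at 0.956, Slc2a1 was 0.0511 within a range of 0.0158 to 0.0728, and Pfkfb3, at 0.0708, was the highest of the 9. With its cells left out, Hk2 ranged from 0.247 to 0.795 over the libraries in place of 0.544 to 1.64, immune cells were higher than fibroblasts by 0.84 (adjusted p = 1.73e-07, edgeR), and 7 of 10 genes were again rhythmic in fibroblasts. The clusters share libraries, so these levels are a description.

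**Figure D4:**
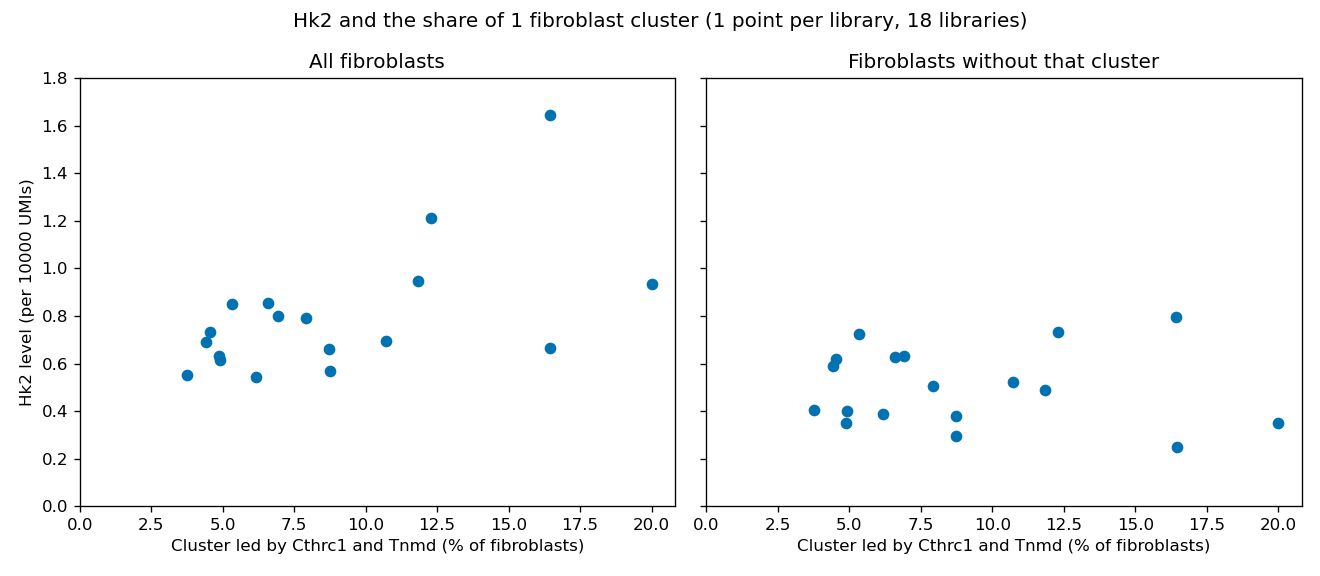
Hk2 level per 10000 UMIs in fibroblasts against the share of the cluster led by Cthrc1 and Tnmd in percent of fibroblasts, 1 point per library, for all fibroblasts (left) and without that cluster (right). Leaving out the cluster lowers the highest value from 1.64 to 0.795 and the lowest from 0.544 to 0.247. The ratio of highest to lowest is 3.02 with the cluster and 3.22 without it.

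The immune class was a mixture, and the genes were carried by different cells in it. By leading genes and markers it held 1879 macrophage-like, 671 monocyte-like, 312 dendritic-like, 148 neutrophil-like, 54 mast-like and 38 B-like cells and 273 cells of a cluster led by Gzma, Ccl5 and Nkg7. Slc2a1 was at 1.92 per 10000 UMIs in the neutrophil-like and 1.08 in the mast-like cells, pooled over libraries, against 0.0127 in the macrophage-like cells. In the 2 libraries with at least 10 neutrophil-like cells it was 2.13 (ZT14 replicate 1) and 1.75, and the highest library of the monocyte-like cells was at 0.526. Pooled Pkm was 6.12 in neutrophil-like, 3.16 in monocyte-like and 1.46 in macrophage-like cells. ZT14 replicate 1 held 92 of the 148 neutrophil-like cells behind the first of these values. Neutrophil-like Pkm was 7.42 in it and 2.39 in ZT14 replicate 2, which held only 10 such cells. The other libraries held fewer than 10 each and enter only the pooled value. The monocyte-like median was 2.61, and the monocyte-like cells of ZT14 replicate 1 were also high, at 6.54. Ldha was highest in mast-like cells (5.69) and in the Gzma cluster (3.66), and Pfkp in mast-like cells (2.17) with 0.280 in macrophage-like cells.

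Pfkfb3 and Hk2 had another pattern. Pooled Pfkfb3 was 0.986 in dendritic-like, 0.917 in macrophage-like and 0.653 in monocyte-like cells. It was 0.178 in the Gzma cluster and 0.135 in the mast-like cells (4 UMIs). In neutrophil-like cells it was 1.64 pooled, 2.11 in ZT14 replicate 1 and 0.478 in ZT14 replicate 2, which held only 10 such cells. The medians were 0.805 in the macrophage-like and 0.906 in the dendritic-like cells. The place of the neutrophil-like cells in the order is not settled by so few cells. Pooled Hk2 was 0.970 in macrophage-like, 0.975 in monocyte-like and 0.674 in dendritic-like cells. It was 0.183 in the Gzma cluster, 0.266 in the neutrophil-like cells (18 UMIs) and 0.271 in the mast-like cells (8 UMIs). No test was made between these sub-clusters, and 92 of the 148 neutrophil-like cells come from 1 library. No library held 10 mast-like or 10 B-like cells, so their pooled values have no spread over libraries.

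**Figure D5:**
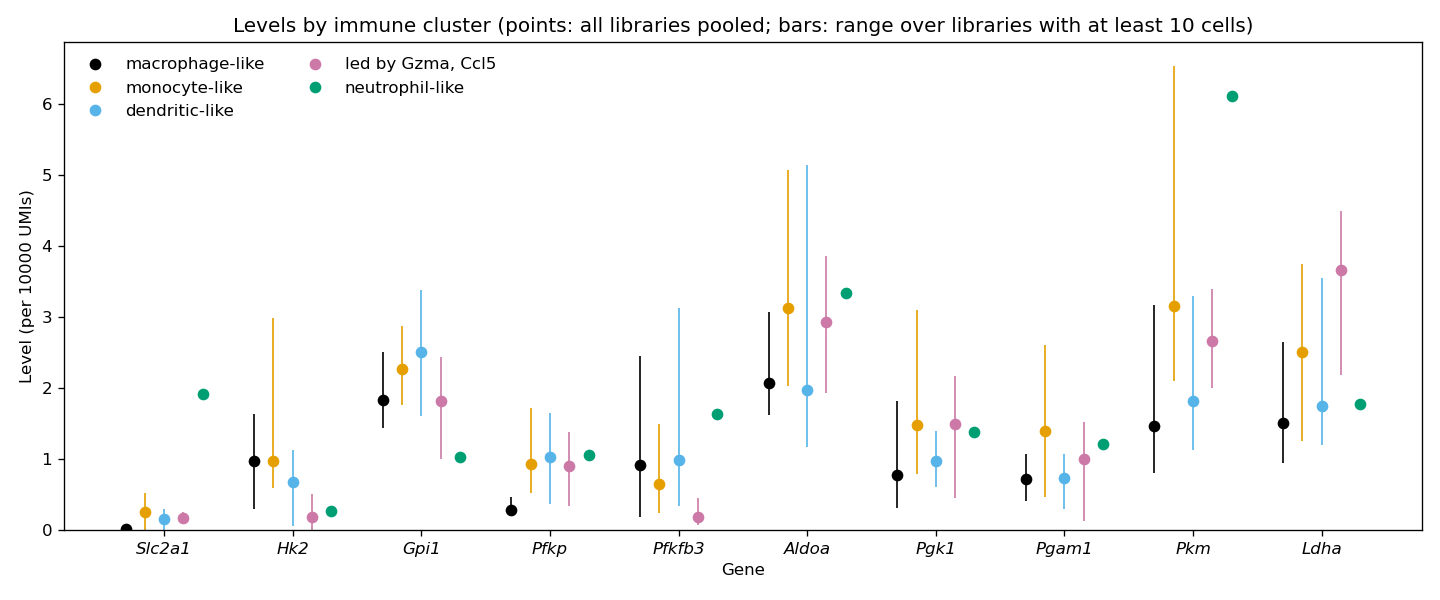
Level per 10000 UMIs of the 10 genes in the macrophage-like, monocyte-like, dendritic-like, Gzma-led and neutrophil-like cells. Points are all libraries pooled and bars the range over libraries with at least 10 such cells, with no bar for the neutrophil-like cells. Slc2a1 is highest in the neutrophil-like point (1.92). The neutrophil-like Pkm point (6.12) pools 7.42 in ZT14 replicate 1, 2.39 in ZT14 replicate 2 with 10 such cells, and libraries with fewer.

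In the macrophage-like cells alone, Pfkfb3 was 1.42, 1.14 and 1.04 per 10000 UMIs at ZT6, 1.48, 1.32 and 2.45 at ZT10 and 0.342, 0.619 and 0.714 at ZT14. The 3 libraries at ZT14 were all below those at ZT6 and ZT10. Hk2 was 1.63, 1.61 and 1.19 at ZT22 and 0.406, 0.665 and 0.536 at ZT2, again with the ZT22 libraries above the other 15. Pkm in these cells was 3.18, 1.46 and 1.47 at ZT14, so ZT14 replicate 1 was the highest library in these cells too. In the fit on macrophage-like cells the smallest adjusted p was 0.144, for Pfkfb3 with a difference of 1.43 (edgeR), and no gene passed.

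The summed level of the 10 genes over the 18 libraries was most like that of Ran in both classes, with a Spearman rho of 0.94 in fibroblasts and 0.89 in immune cells. Ran encodes the GTPase of nuclear transport. In fibroblasts Ubqln4, Tmem33, Hspe1 and Tsfm followed (0.90 to 0.88), out of 7805 genes, and in immune cells Atp5g1, Snrpd1, Vdac3 and Anxa2 (0.89 to 0.88), out of 7766. The points share the depth and makeup of each library, and without ZT14 replicate 1 the rho of Ran was 0.93 and 0.87.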

How the data were processed

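The authors counted unique molecular identifiers (UMIs) per gene and barcode and deposited these counts as they were, not normalized, with a matrix for each library. The submitters' processing notes name Cell Ranger 3.1.0 and the mm10 genome. Gene positions are from GENCODE M21 (GRCm38, the same build) and promoter sequences from RefSeq (GRCm38.p6).

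The study's filter on cells was applied: 850 to 7800 genes detected per cell, and mitochondrial UMIs below 13%. Total counts of 4850221 to 40827442 UMIs per library, in 103 to 1545 fibroblasts and 31 to 448 immune cells, set the precision of the levels. Cells were clustered with the Leiden algorithm in scanpy 1.11.5 (leidenalg 0.10.2, igraph 0.11.9, 2000 variable genes without clock, glycolysis and pathway genes, 30 principal components, 15 neighbours, Leiden resolution 0.8), and clusters were named from at least 3 detected markers. A marker counted as detected with a UMI in 25% of the cells and a level no lower than 10% of its highest cluster's. This scoring rule was revised after clusters had been seen, and the authors' cell annotation was not used. Scrublet's own threshold marked 77 cells (0.456%) and was not relied on. Removal of the 219 cells with the highest scores was an alternative. The 806 unnamed and 27 endothelial-like cells were left out.

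UMIs were summed per library and class. A 24 h rhythm (cosine and sine terms), the difference in rhythm and the difference in level (both with the library as a block) were tested with edgeR 4.0.16 (quasi-likelihood test, TMM, filterByExpr, Benjamini-Hochberg adjustment over all genes tested) in R 4.3.3, with a threshold of 0.05. Muscle was not tested for a rhythm, since several libraries hold few muscle cells. DESeq2 1.42.0, limma 3.58.1 on log2(value + 0.01) of means over cells, and a JTK_Cycle written anew were alternatives, beside other scalings, filters and cell sets. Levels and figures were made with Python 3.11.15, numpy 2.4.6, scipy 1.17.1, pandas 2.3.3 and matplotlib 3.10.9. The scripts were tested on simulated data.

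From the collection hours in the labels, the replicate number was read as the collection day, which pairs libraries across times. The median correlation of deviations between libraries of the same number was 0.0497 in fibroblasts and 0.0604 in immune cells (45 pairs each, lowest -0.138 and -0.255). Between libraries of different numbers it was -0.0247 and -0.0282. The deviations were taken from the mean of the 3 libraries of each time. That centring largely sets the opposite sign by arithmetic, so these values are no second observation.

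The 10 genes are all named. Of the other listed genes, those with the smallest adjusted p in each rhythm test are named, up to 8 for glucose metabolism and up to 4 for the HIF-1 response. Genes most like the summed level are the 5 with the highest Spearman rho among genes with a mean of at least 0.1 per 10000 UMIs. The genes and lists were chosen with earlier results of these data known, and are no independent evidence of any pattern.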

Additional observations from a re-analysis of the deposited data

How the results depend on the processing

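With DESeq2 1 gene and with JTK_Cycle 2 genes were rhythmic in immune cells in place of 0, and the cause was not tested. When each library was left out in turn, the count of rhythmic genes was 5 to 7 in fibroblasts, 0 in immune cells and 0 for the difference in rhythm, and the counts that differed in level stayed at 8 (immune and fibroblast), 9 (muscle and fibroblast) and 10 (muscle and immune). With the replicate number as a block, 7 genes were rhythmic in fibroblasts and 0 in immune cells, the difference passed for 0, and the block changed no call on these genes. Over all genes, 1741 were rhythmic in fibroblasts and 9 in immune cells, against 1810 and 8 with the block and 2399 and 29 with DESeq2. JTK_Cycle called 6 of the 10 in fibroblasts, where it called 7.48% of the 22167 genes it tested. Without a filter on low counts the second Aldoa entry was also tested. Pfkfb3 between muscle and fibroblasts passed under 4 alternatives (-1.02 to -1.37), and Hk2 between muscle and immune cells lost its call with DESeq2 (0.33, adjusted p = 0.0552). Alternatives chosen after seeing the data were those without shared barcodes, without the neutrophil-like cluster and without the Cthrc1 and Tnmd cluster. No result that passed in the main tests reversed under any alternative that was run. Results that did not pass were not judged for this. Aldoa between immune cells and fibroblasts, which did not pass, went from -0.09 with TMM to 0.004 with RLE scaling. Depth limits most the muscle values of Slc2a1, Pfkp, Pfkfb3 and Pgam1 (4, 15, 15 and 55 UMIs over 12 libraries), and in immune cells those of Slc2a1 (563 UMIs over 18).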

Other observations

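Among the 57 listed genes of glucose metabolism outside the 10, Slc16a3 had the smallest adjusted p in immune cells (0.426, edgeR). It encodes the lactate exporter MCT4, and its fitted peak-to-trough difference was 2.51 (log2) with a peak at ZT14.7. Gapdh (0.57, peak at ZT14.0, adjusted p = 0.560) and the glucose transporter gene Slc2a3 (1.50, ZT13.9, adjusted p = 0.577) had fitted peaks within 1 h of it. None of these passed, and their fits are given only with ZT14 replicate 1 included. The summed HIF-1 response genes were highest in the immune cells of ZT14 replicate 1, at 10.3 per 10000 UMIs against a median of 6.61 and a lowest library of 5.38. In its fibroblasts the same sum was 12.0, the 4th of 18 (range 9.92 to 12.6). How far the neutrophil-like cells of that library contribute to the immune value was not tested.

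In muscle, where no rhythm was tested, Aldoa lay between 220 and 300 and Ldha between 28.8 and 40.4 per 10000 UMIs over the 12 libraries, a narrow range beside their distance from the other classes. Pkm lay between 5.33 and 10.3 and Gpi1 between 3.49 and 6.31. The genes of the lactate and pyruvate list differed in the same contrast in 13 of 13 cases, 10 of them higher in muscle than in fibroblasts, where 26.8% of all genes were higher and 53.4% lower, and the listed genes of the pentose phosphate pathway were higher in 1 and lower in 4 of 7, where the median of all genes was -1.05 on the log2 scale.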
